A study of Rattus norvegicus with 12 samples.

Results

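The genes described here are 9 genes of epithelial and endothelial cell junctions: the claudins Cldn3, Cldn4, Cldn5, Cldn7 and Cldn18, occludin (Ocln), the scaffold ZO-1 (Tjp1), the junctional adhesion molecule F11r and E-cadherin (Cdh1). They were chosen by name, and each was taken with every probe set of the array whose platform annotation names that gene and no other. All 9 genes were found, with 14 of the 31099 probe sets, among 14218 genes named in this way. A filter on dim probe sets kept 12 of the 14, with at least 1 for each gene, and 18625 probe sets in all.

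The arrays measured RNA of the right lung in 4 groups of rats with 3 arrays each, 12 in all. SS control and SS HTV lungs came from Dahl salt-sensitive rats (SS), an inbred strain known for salt-induced hypertension. BN control and BN HTV lungs came from Brown Norway rats (BN), and the labels call both strains parents. HTV is a mode of ventilation that the labels abbreviate and do not spell out, and the room air they give is stated for control and HTV animals alike. The labels give no dose, duration, age or transgene. Animals of all groups weighed 250 to 350 g, and in all of them the lung vessels were flushed with buffered saline before the right lung was frozen. The labels give each array of a group its own code, so the spread behind each p-value is taken as that between animals, with no batch named.

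Tight junctions seal the gap between neighbouring cells close to their apical side. Claudins span the membrane and set which ions and how much water pass between cells, occludin and F11r lie beside them, and ZO-1 ties them to actin inside the cell. In the lung this seal lies between alveolar epithelial cells and, with Cldn5 as the leading claudin, between endothelial cells, and it keeps plasma out of the air space. Cdh1 belongs to the adherens junction below it, which holds epithelial cells together.

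The repressors Snai1 and Zeb2, known to act on claudin, occludin and E-cadherin genes, bind the letters CACCTG, and the sequences before the gene starts were read for them. RefSeq sequences of GRCr8 with 250 bases before the gene start were at hand for 7 of the 9 genes, all but Cldn4 and Cdh1. On both strands CACCTG occurred 4 times before Cldn7, 2 times before Ocln, 1 time each before Cldn3 and F11r and 0 times before Cldn5, Cldn18 and Tjp1, and 15.9% of 33469 such sequences held it. The GC box GGGCGG occurred before Cldn3, Cldn5, Cldn7, Cldn18 and F11r (30.5% of all), and the AP-1 letters TGANTCA before F11r alone of the 7 (6.34% of all). The forkhead letters TGTTTAC occurred before none of the 7 (3.21% of all). The motifs do not overlap each other in these sequences. Shown are Cldn5, which passed the test for HTV over both strains, and Cldn7 and Ocln, which hold CACCTG more than once. Cldn4 passed that test too and had no sequence to read. Each runs 5′ to 3′ along the gene, with capitals marking CACCTG or GGGCGG on either strand.
Cldn5, chr11:95718599-95718848, minus strand: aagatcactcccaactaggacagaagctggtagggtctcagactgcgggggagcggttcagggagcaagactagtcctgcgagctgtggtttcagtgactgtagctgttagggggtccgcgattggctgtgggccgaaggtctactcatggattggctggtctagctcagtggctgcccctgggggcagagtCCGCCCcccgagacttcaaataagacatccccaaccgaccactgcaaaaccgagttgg
Cldn7, chr10:55188420-55188669, plus strand: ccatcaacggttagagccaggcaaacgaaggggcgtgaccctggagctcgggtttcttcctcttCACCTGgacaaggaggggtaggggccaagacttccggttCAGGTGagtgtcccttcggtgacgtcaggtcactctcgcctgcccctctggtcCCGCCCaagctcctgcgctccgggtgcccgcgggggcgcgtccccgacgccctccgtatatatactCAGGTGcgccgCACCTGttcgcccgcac
Ocln, chr2:33441199-33441448, minus strand: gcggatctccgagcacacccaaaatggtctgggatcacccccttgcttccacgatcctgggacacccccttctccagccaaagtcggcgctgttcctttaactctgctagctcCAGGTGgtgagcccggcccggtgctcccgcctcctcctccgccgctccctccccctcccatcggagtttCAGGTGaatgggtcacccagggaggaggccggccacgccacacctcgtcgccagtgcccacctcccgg
A match of letters is a description and not a binding site, and no match says only that the letters are not in this window.

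Levels are given as deposited, in linear intensity. A difference is a difference of mean log2(intensity + 16), with limma's standard error (SE) after ±, and on this scale a dim probe set's change comes out too small. A difference passed the test at an adjusted p below 0.05 over all 18625 probe sets. With n = 3 in each group, precision is limited by how few arrays there are. Levels of different probe sets are not compared with each other. In whole lung RNA, fewer cells of a type and less RNA per cell cannot be told apart.

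Before the results, 1 array needs naming. SS control 3 had the lowest mean correlation with its own group, r = 0.950, and the smallest array weight in limma, 0.287. There were 35 probe sets at which a gap of over 1.5 on the log2 scale parted the 5 other SS arrays from all BN arrays, and at 13 of these SS control 3 was past the midpoint towards BN. At the 12 probe sets of the junction genes it lay nearer the BN control mean than the mean of the other SS controls at 6. Cldn4 and Cldn5 were among these 6, and SS control 3 lay within the BN control range at 3 of the 12. The share over all probe sets was not taken, so this count alone shows no shift towards BN. RNA integrity can be read from beta-actin controls as the log2 ratio of their 5-prime to their 3-prime signal, which ran from -1.40 to -0.23 in SS arrays, with SS control 3 lowest, and from -1.46 to -0.88 in BN arrays. Whether the array labelled SS control 3 holds mixed, exchanged or poorer RNA was not tested, and every SS control mean and strain difference includes it unless stated. Results on the 9 genes that rest on it are given with and without it.

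Markers of blood cells moved with HTV, and their part in the HTV differences of the junction genes was not tested. All 6 neutrophil markers tested rose over both strains with HTV, and their summed intensity was 1393.4 to 2347.0 in SS controls, 5237.6 to 7603.1 in SS HTV lungs, 918.1 to 1600.0 in BN controls and 2840.2 to 8032.8 in BN HTV lungs. All 3 platelet markers rose too, with sums of 281.5 to 365.3 and 529.5 to 1020.1 in SS and of 244.6 to 327.9 and 392.6 to 732.8 in BN. Over both strains 7.02% of all probe sets rose. No tested marker of any list was at 0 on all arrays.

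Cldn4 is the claudin that known work ties to injured and repairing alveolar epithelium. Its probe set, 1388547_at, read 45.8, 46.0 and 61.0 in SS control lungs and 87.9, 82.3 and 64.4 in SS HTV lungs. In BN it read 61.6, 73.1 and 62.4 in control lungs and 95.5, 103.5 and 101.7 in HTV lungs. In both strains every HTV array lay above every control array.

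Group means of Cldn4 were 50.9 ± 8.72 (SD, n = 3) in SS control, 65.7 ± 6.42 in BN control, 78.2 ± 12.3 in SS HTV and 100.2 ± 4.20 in BN HTV. The arrays of SS HTV and BN control overlapped, and the other neighbours in this order did not overlap, although the strain differences below did not pass the test. The HTV mean was 1.54 times the control mean in SS and 1.53 times in BN. Over both strains the log2 difference was 0.50 ± 0.10 (SE; 95% interval 0.29 to 0.72; limma adjusted p = 0.00422). Cldn4 therefore rose with HTV over both strains, and with each of the 12 arrays left out in turn its adjusted p stayed between 0.00222 and 0.0136.

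Within a strain the Cldn4 differences were of nearly the same size and lay on either side of the threshold. In SS the log2 difference was 0.49 ± 0.14 (adjusted p = 0.0481), and in BN it was 0.51 ± 0.14 (adjusted p = 0.0503). Leaving out 1 array ended the SS call in 10 of 12 cases, all but SS control 3 and SS HTV 3, with adjusted p up to 0.174. Quantile normalization and median centring ended it too (adjusted p = 0.104 and 0.0964), and quantile normalization made the BN difference pass (adjusted p = 0.044). Without SS control 3 the SS difference was 0.60 and passed (adjusted p = 0.0333), and the BN difference passed too (adjusted p = 0.0304). The interaction, the BN difference minus the SS difference, was 0.02 with a 95% interval of -0.41 to 0.45.

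Cldn5 is the main claudin of endothelial cells. On probe set 1374104_at it read 1796.3, 1713.3 and 2189.8 in SS control lungs and 2488.6, 2473.3 and 2075.2 in SS HTV lungs. In BN it read 2235.8, 2446.2 and 2438.1 in control lungs and 2502.7, 2915.6 and 2758.0 in HTV lungs. The groups overlapped in SS, through SS control 3 and SS HTV 3, and did not overlap in BN.

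Group means of Cldn5 were 1900 ± 255 (SD) in SS control, 2346 ± 234 in SS HTV, 2373 ± 119 in BN control and 2725 ± 208 in BN HTV. The arrays of SS HTV overlapped with those of SS control and of BN control, and BN control did not overlap with BN HTV. Over both strains Cldn5 rose with HTV by 0.25 ± 0.08 log2 units (95% interval 0.08 to 0.42; limma adjusted p = 0.0461), and neither strain alone passed, with 0.31 ± 0.11 in SS (adjusted p = 0.109) and 0.20 ± 0.11 in BN (adjusted p = 0.36). The call was lost in 9 of 12 cases with 1 array left out, with adjusted p between 0.0676 and 0.108 in those cases. It was kept without SS HTV 3, BN HTV 1 or SS control 3. Median centring ended it (adjusted p = 0.11). Without SS control 3 the difference over both strains was 0.30 (adjusted p = 0.00957) and the SS difference of 0.41 passed as well (adjusted p = 0.0364).

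The part of endothelial cell number in the Cldn5 result was not tested, and the endothelial markers are given beside it. Of 11 endothelial markers tested, 1 rose over both strains, the VEGF receptor Flt1, and 2 fell, the receptor Calcrl (-0.59) and the secreted factor Egfl7 (-0.55); their median log2 difference was -0.08, against -0.02 over all probe sets. Another probe set of Flt1 rose as well, by 1.06 (limma adjusted p = 0.00056), while 1 more gave -0.17 and did not pass (adjusted p = 0.474). The other probe set of Egfl7 gave -0.17 and did not pass either (adjusted p = 0.19). The summed intensity of the 11 markers was 11089.7 to 12452.8 in SS control and 10642.8 to 12364.4 in SS HTV lungs, and 14492.5 to 14931.8 in BN control and 12473.2 to 13556.6 in BN HTV lungs.

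**Figure D1:**
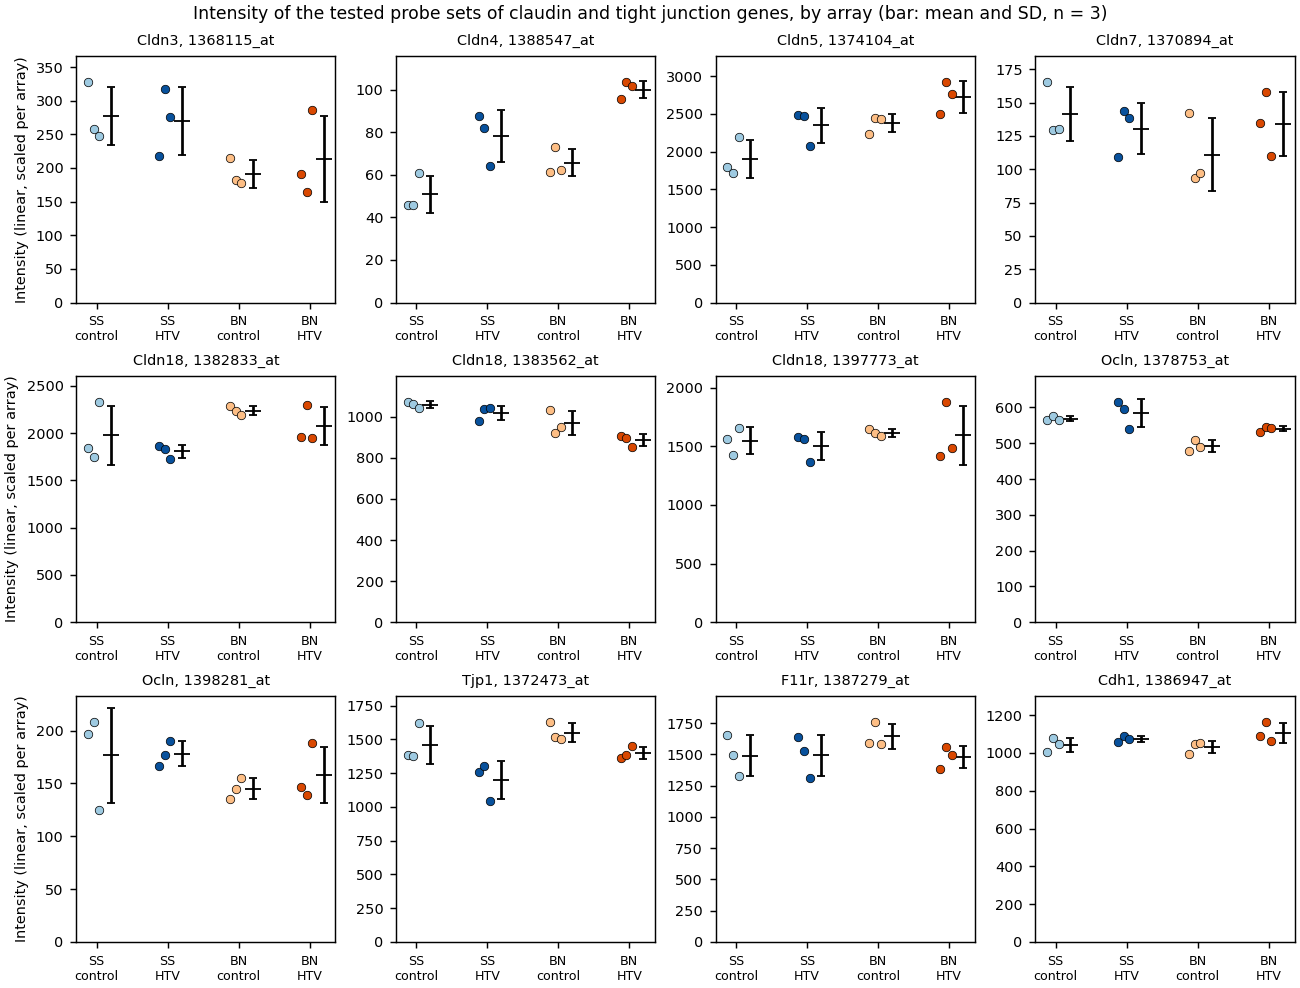
Deposited intensity (linear, arbitrary units, axis from 0) of the 12 tested probe sets of the 9 genes on each of the 12 arrays. Points are single arrays, in order of replicate number from left to right, and the bars beside them give each group's mean and SD. Cldn4 (1388547_at) lies at 45.8 to 61.0 in SS control and 64.4 to 87.9 in SS HTV, and at 61.6 to 73.1 in BN control and 95.5 to 103.5 in BN HTV.

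Cldn3 lies beside Cldn4 on chromosome 12 with no gene between them in the RefSeq order, and it is expressed by alveolar type 2 and airway cells. It read 327.0, 258.1 and 247.0 in SS control and 217.3, 317.8 and 276.1 in SS HTV lungs. In BN it read 215.4, 182.1 and 177.3 in control and 190.8, 163.7 and 285.4 in HTV lungs. The HTV and control arrays overlapped in both strains, and the HTV differences were -0.04 ± 0.19 in SS and 0.11 ± 0.19 in BN. Whether HTV acted unlike on Cldn3 and Cldn4 was not tested.

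Cldn7, found in airway epithelium and also on the basolateral side of cells, read 165.1, 129.7 and 130.3 in SS control and 108.9, 143.9 and 138.7 in SS HTV lungs. Its BN values were 142.5, 93.1 and 96.9 in control and 134.5, 157.9 and 110.0 in HTV lungs. Control and HTV arrays overlapped in both strains. The HTV differences were -0.11 ± 0.18 and 0.25 ± 0.18, and the interaction of 0.36 ± 0.25 was the largest in size among the 12 probe sets and did not pass (adjusted p = 0.694).

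Cldn18 is the claudin that marks alveolar epithelium, and 3 probe sets measured it. The first, 1382833_at, read 1848.1, 1750.7 and 2327.8 in SS control, 1860.4, 1837.9 and 1727.1 in SS HTV, 2284.3, 2239.1 and 2191.9 in BN control and 1958.9, 2303.5 and 1953.3 in BN HTV lungs. SS control 3 was its highest array, and the HTV groups overlapped with their controls. The second, 1383562_at, ran from 1040.1 to 1070.5, 980.3 to 1041.3, 919.2 to 1032.3 and 852.3 to 907.2 in the same order of groups, and its BN groups did not overlap. The third, 1397773_at, ran from 1422.3 to 1651.7, 1362.2 to 1577.1, 1585.1 to 1648.2 and 1415.4 to 1875.3. All 3 lay slightly lower with HTV over both strains, by -0.12, -0.09 and -0.04 log2 units, and none passed (limma adjusted p = 0.345, 0.331 and 0.788). After quantile normalization the first passed with -0.16 (adjusted p = 0.0322). Without SS control 3 the SS difference of the first went from -0.12 to 0.01.

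Of 8 alveolar type 1 markers tested beside Cldn18, 0 rose and 1 fell over both strains, the water channel Aqp5 (-0.32), and of 10 type 2 markers 0 rose and 1 fell, the transcription factor Etv5 (-0.47; another probe set of Etv5 gave 0.17 and did not pass). The shares over all probe sets were 7.02% rising and 8.71% falling. The summed type 1 intensity ran from 13094.1 to 14730.6 in SS control, 12282.2 to 13924.9 in SS HTV, 14347.2 to 15403.6 in BN control and 13761.0 to 14607.8 in BN HTV lungs. The type 2 sums ran from 19895.7 to 24936.9, 18930.6 to 24563.8, 22450.4 to 25578.6 and 22004.4 to 29145.8. None of 5 general epithelial markers and none of 7 club and ciliated cell markers passed for HTV in either strain or over both (limma; at an unadjusted p below 0.05, 2 of the epithelial markers in BN and 2 over both strains, and 0 of the others).

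Occludin is a membrane protein of the MARVEL family that runs along the tight junction strands. Ocln on 1378753_at read 563.6, 576.8 and 565.8 in SS control and 614.7, 596.4 and 540.9 in SS HTV lungs, and 478.1, 509.2 and 488.4 in BN control and 532.3, 545.9 and 543.7 in BN HTV lungs. The BN groups did not overlap and the SS groups did. Its HTV differences were 0.04 ± 0.08 in SS and 0.13 ± 0.08 in BN (adjusted p = 0.823 and 0.425). The second probe set, 1398281_at, overlapped in both strains, with differences of 0.04 ± 0.17 and 0.10 ± 0.17; its SS control 3 read 125.3, against 196.7 and 208.2 in the other SS controls.

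ZO-1 links claudins and occludin to actin. Tjp1 on 1372473_at read 1382.8, 1377.0 and 1624.3 in SS control and 1259.6, 1304.9 and 1040.7 in SS HTV lungs. In BN it read 1629.6, 1519.9 and 1501.7 in control and 1365.2, 1383.8 and 1449.5 in HTV lungs. In both strains every HTV array lay below every control array, with means of 1461 ± 141 (SD) and 1202 ± 141 in SS and of 1550 ± 69.2 and 1400 ± 44.3 in BN.

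The Tjp1 difference over both strains was -0.21 ± 0.07 and did not pass (limma unadjusted p = 0.0115, adjusted p = 0.0643), nor did -0.28 ± 0.10 in SS (adjusted p = 0.11) or -0.15 ± 0.10 in BN (adjusted p = 0.48). After quantile normalization it passed over both strains with -0.25 (adjusted p = 0.00968) and in SS with -0.29 (adjusted p = 0.042), and with the beta-actin ratio as a covariate it passed over both strains with -0.23 (adjusted p = 0.0253). Without SS control 3 the difference over both strains was -0.17. The other probe set of Tjp1, 1395337_at, was under the filter, with intensities of 2.0 to 31.5 on all arrays and 3.9 to 5.7 in SS HTV lungs, and was not tested.

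F11r, an immunoglobulin-like adhesion molecule at tight junctions and also on platelets and leukocytes, read 1655.9, 1492.7 and 1325.2 in SS control and 1635.6, 1527.6 and 1313.1 in SS HTV lungs. In BN it read 1589.3, 1760.0 and 1582.3 in control and 1385.2, 1559.0 and 1498.9 in HTV lungs, without overlap. The differences were 0.00 ± 0.11 in SS and -0.15 ± 0.11 in BN (adjusted p = 0.997 and 0.496). The part of neutrophils and platelets in the F11r values was not tested.

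Cdh1 on 1386947_at read 1004.5, 1077.3 and 1048.6 in SS control, 1058.1, 1089.7 and 1072.9 in SS HTV, 994.4, 1047.5 and 1052.2 in BN control and 1089.8, 1164.3 and 1062.4 in BN HTV lungs. The 4 groups lay close together. Its HTV differences were 0.04 ± 0.08 in SS and 0.10 ± 0.08 in BN, with 95% intervals of -0.13 to 0.21 and -0.07 to 0.27. A second probe set of Cdh1, 1386446_at, read 1.3 to 15.1 and was under the filter.

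Among the 12 tested probe sets, 1 passed for HTV in SS (Cldn4), where 8.06% of all probe sets passed, 0 passed in BN, where 5.82% did, and 2 passed over both strains (Cldn4 and Cldn5), where 15.7% did. At an unadjusted p below 0.05 the counts were 3, 1 and 3, against 25.3%, 19.9% and 30.1% of all probe sets. HTV and control arrays did not overlap at 2 of the 12 in SS, at 7 in BN and in the same direction in both strains at 2, Cldn4 higher and Tjp1 lower. Over all probe sets these shares were 29.8%, 26.6% and 10.6%. By direction, 3.91% of all probe sets rose and 4.16% fell in SS, 2.96% rose and 2.86% fell in BN, and 7.02% rose and 8.71% fell over both strains. The 7 in BN were Cldn4, Cldn5, Ocln (1378753_at) and Cdh1, higher, and Tjp1, F11r and Cldn18 (1383562_at), lower.

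The typical size of the HTV difference at these genes was small in SS. The median size, without sign, was 0.05 log2 units over the 12 probe sets in SS against 0.19 over all, and 0.13 against 0.16 in BN. With sign, the medians were -0.02 in SS and 0.10 in BN, against -0.01 and -0.04 over all probe sets. The strain by HTV interaction passed at 0 of 12 and at 0.0% of all probe sets (limma), and at an unadjusted p below 0.05 it did so at 0 of 12 and at 8.33% of all. Its 95% intervals over the 12 probe sets reached from -0.48 to 0.89.

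**Figure D2:**
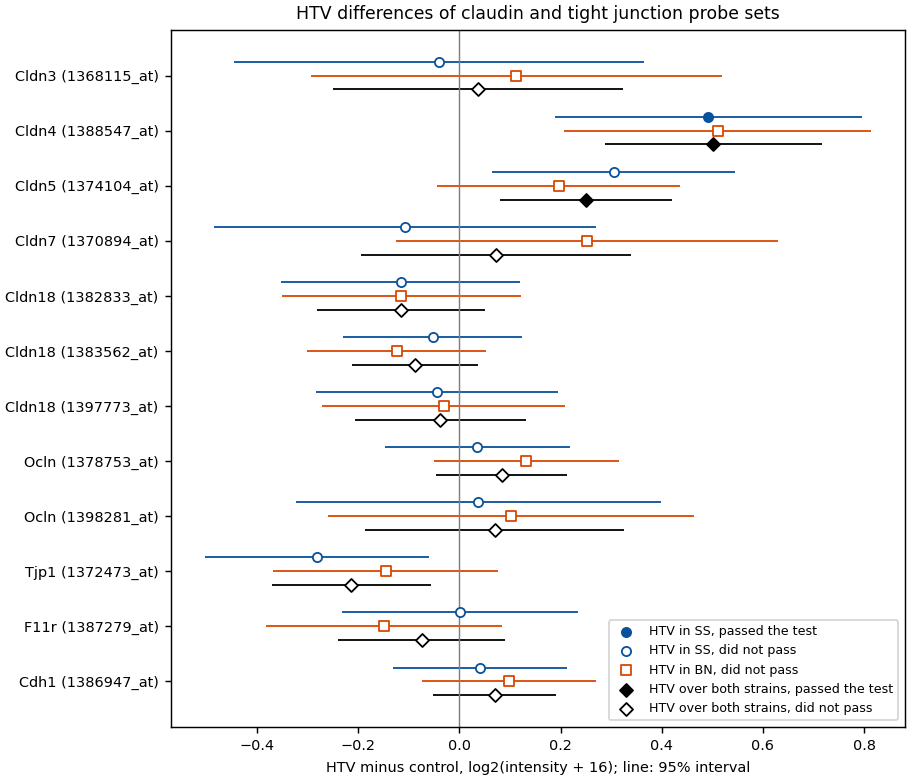
HTV minus control differences (log2 scale, intensity + 16) of the 12 tested probe sets in SS and in BN and over both strains, with 95% intervals from the limma model of 12 arrays. Cldn4 has 0.49 in SS and 0.51 in BN, and Tjp1 lies below 0 in both strains with -0.28 and -0.15.

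In control lungs 0 of the 12 probe sets passed between BN and SS (limma), where 12.2% of all probe sets passed (6.41% higher and 5.84% lower in BN), and 3 did at an unadjusted p below 0.05 (28.9% of all). The median size of the difference, without sign, was 0.20 log2 units over the 12 against 0.21 over all probe sets. The arrays did not overlap at 5, against 33.2% of all: Cldn4 and Cldn5 were higher in BN, and Cldn3, Ocln (1378753_at) and Cldn18 (1383562_at) lower. The sizes were 0.29 ± 0.14 for Cldn4, 0.33 ± 0.11 for Cldn5, -0.49 ± 0.19 for Cldn3, -0.20 ± 0.08 for Ocln and -0.13 ± 0.08 for Cldn18, with adjusted p = 0.189, 0.0726, 0.103, 0.132 and 0.317.

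These strain values moved with SS control 3. Without it Cldn5 was higher in BN control lungs by 0.43 (adjusted p = 0.0185) and Cldn18 (1382833_at) by 0.31 (adjusted p = 0.0424), and both passed. In that fit Cldn18 gave -0.14 on 1383562_at and 0.11 on 1397773_at, and neither passed (limma adjusted p = 0.3 and 0.567). No strain direction is therefore given for Cldn18 in control lungs. The second Ocln probe set (1398281_at) went from -0.23 ± 0.17 to -0.44 ± 0.14 and did not pass (adjusted p = 0.0538). With SS control 3 and BN HTV 3 both left out, 4 passed in control lungs: Cldn3 (-0.57), Cldn5, Cldn18 (1382833_at) and Ocln (1398281_at). In that fit 11.6% of all probe sets passed. BN HTV 3 is not in this comparison and enters only through the shared spread. Without SS control 3 alone Cldn3 had the same -0.57, with an SE of 0.21 in place of 0.16, and did not pass (limma adjusted p = 0.0976). The Ocln difference was likewise the same in both fits. With the beta-actin ratio as a covariate none passed, and the differences of Cldn5 and Cldn4 went to 0.21 (adjusted p = 0.134) and 0.16 (adjusted p = 0.414).

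Under HTV 0 of the 12 probe sets passed between the strains (limma), where 8.24% of all did (4.42% higher and 3.82% lower in BN), and 3 did at an unadjusted p below 0.05 (23.3% of all). The median size was 0.18 over the 12 against 0.17 over all. The arrays did not overlap at 5, against 29.3% of all. Cldn4, Cldn5, Tjp1 and Cldn18 (1382833_at) were higher in BN, by 0.31, 0.22, 0.22 and 0.19, and Cldn18 (1383562_at) was lower, by -0.20. These 2 probe sets of Cldn18 thus lay on opposite sides, the third (1397773_at, 0.08) overlapped, and no strain direction can be given for that gene. The beta-actin ratio ran from -1.01 to -0.39 in SS HTV and from -1.35 to -1.15 in BN HTV arrays, without overlap. With this ratio as a covariate the 5 differences were 0.11, 0.05, 0.11, 0.05 and -0.15 in the order above, and none passed (limma). The part of RNA integrity in them was not tested.

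**Figure D3:**
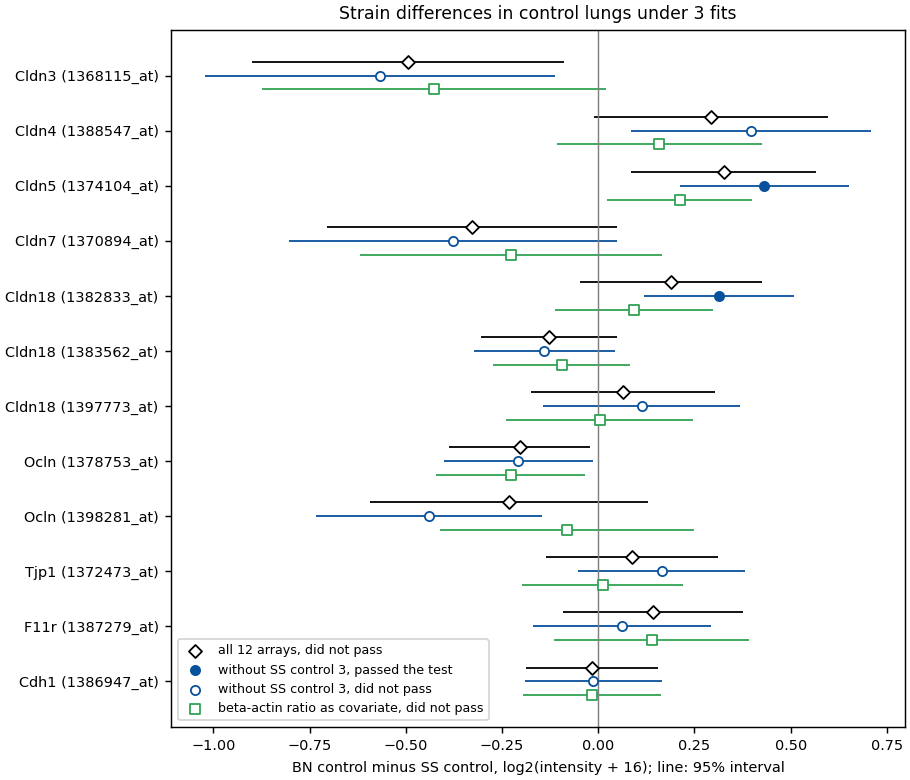
BN minus SS differences (log2 scale, intensity + 16) of the 12 tested probe sets in control lungs, with 95% intervals, from the limma model of all 12 arrays, without SS control 3, and with the beta-actin ratio as a covariate. Filled points passed the test. Cldn5 in control lungs goes from 0.33 with all arrays to 0.43 without SS control 3, and Ocln (1398281_at) from -0.23 to -0.44.

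Markers that also differed between the strains are given here, and their part in the strain values was not tested. Of 11 endothelial markers, 2 were higher in BN control lungs, Pecam1 (0.52) and Vwf (0.89), and Calcrl was lower (-0.64), with a median of 0.27 against 0.02 over all probe sets. Under HTV Pecam1 (0.63) and Vwf (0.59) were higher in BN as well. The shares of all probe sets higher and lower in BN were 6.41% and 5.84% in control lungs and 4.42% and 3.82% under HTV. Of 5 epithelial markers, Krt18 was lower in BN control lungs (-0.47), and Krt8 (-0.42) and Krt19 (-0.65) were lower under HTV, with a summed intensity of 4240.2 to 4424.1 in SS control, 4016.0 to 4602.7 in SS HTV, 3372.8 to 3767.3 in BN control and 3268.7 to 3637.8 in BN HTV lungs. With 1 array left out the Krt18, Krt8 and Krt19 calls were lost in 3, 5 and 4 of 12 cases, and the Calcrl call in 8. With the beta-actin ratio as a covariate all 4 calls were lost (adjusted p = 0.054, 0.172, 0.166 and 0.0976). Cardiac muscle markers, which lung veins of rats carry, were higher in BN control lungs at 4 of 5 and under HTV at 1 of 5, and at 2 and 0 of 5 with that covariate. Of the type 1 markers Akap5 was higher (1.57) and Aqp5 lower (-0.38) in BN control lungs, and under HTV too (1.955 and -0.39). The Aqp5 call was lost in 4 of 12 cases with 1 array left out in either comparison. Under HTV it was also lost with the beta-actin covariate (limma adjusted p = 0.106). Of the type 2, airway, neutrophil and platelet markers none passed between strains (limma). At an unadjusted p below 0.05 (limma) 1, 2, 2 and 0 did in control lungs and 3, 1, 0 and 1 under HTV.

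The other claudins and membrane proteins of the tight junction had 17 genes on the array and 11 tested. Over both strains 1 of the 11 rose with HTV and 0 fell, where 7.02% of all probe sets rose and 8.71% fell (limma). In each strain 0 passed. At an unadjusted p below 0.05 (limma) 2 did in SS and 1 in BN, against 25.3% and 19.9% of all. The gene that rose was Esam, an adhesion molecule of endothelial junctions and platelets, by 0.35 ± 0.09 (adjusted p = 0.0168), and it passed with each array left out. Its mean went from 1361 to 1827 in SS and from 1464 to 1773 in BN. Between the strains the claudin Cldn8 was higher in BN, by 1.01 ± 0.22 in control lungs and 1.06 ± 0.22 under HTV (adjusted p = 0.0121 and 0.011). The Cldn8 call was lost in control lungs without BN control 2 (adjusted p = 0.0568), and under HTV without SS HTV 2 (adjusted p = 0.0559). With the beta-actin ratio as a covariate it was lost under HTV (limma adjusted p = 0.0501) and kept in control lungs.

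Of 24 plaque, polarity and actin-linking proteins tested, 0 rose and 3 fell with HTV in SS, 0 rose and 1 fell in BN, and 0 rose and 3 fell over both strains. Of all probe sets 4.16%, 2.86% and 8.71% fell in these comparisons. The list's median over both strains was -0.07 against -0.02. The 3 were the angiomotin family members Amotl2 (-0.49 ± 0.06, adjusted p = 0.000212) and Amot (-0.36 ± 0.09, adjusted p = 0.0146), which bind actin and YAP at junctions, and the polarity protein Pard6b (-0.33 ± 0.09, adjusted p = 0.0181). All 3 passed over both strains with each array left out. In SS the 3 fell by 0.61, 0.51 and 0.47 log2 units, and the Amot and Pard6b calls in SS were each lost in 4 of 12 cases with 1 array left out, namely SS control 2, SS control 3, SS HTV 1 and SS HTV 3. Amot and Pard6b were -0.47 and -0.42 without SS control 3 (adjusted p = 0.0653 and 0.0818). In BN Amotl2 fell by 0.37, a call lost in 5 of 12 such cases, those without a BN array other than BN HTV 1.

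Mean intensity of Amotl2 went from 1379 to 902 in SS and from 1542 to 1190 in BN. Between the strains under HTV Amotl2 was higher in BN by 0.40 (adjusted p = 0.0171), while its interaction did not pass (0.24, adjusted p = 0.643). That strain call was lost in 3 of 12 cases with 1 array left out, with limma adjusted p up to 0.0724. In control lungs 3 of this list were lower in BN, namely the atypical kinase Prkcz (-0.63), the myosin light chain Myl9 (-0.49) and the small GTPase Rhoa (-0.42). These 3 calls were lost in 4, 4 and 5 of 12 cases, each without an array of a control lung, for Rhoa also without SS control 3 (-0.34, adjusted p = 0.057). Another probe set of Rhoa gave -1.12 in this comparison and passed (limma adjusted p = 0.00104). With the beta-actin ratio as a covariate the Prkcz and Myl9 calls were lost (limma adjusted p = 0.0581 and 0.0679) and the Rhoa call was kept. Between control lungs 5.84% of all probe sets were lower in BN.

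Adherens junction and desmosome proteins had 19 genes tested. In SS 1 rose, the nectin Nectin1 (0.84 ± 0.21, adjusted p = 0.0282), in BN 0 passed (limma; 4 at an unadjusted p below 0.05), and over both strains 2 rose, Nectin1 (0.50) and the phosphatase Ptprm (0.25). Of all probe sets 3.91% rose in SS and 7.02% over both strains. Without SS control 3 the SS difference of Nectin1 was 0.56 and did not pass (adjusted p = 0.0647), and the call was also lost without SS control 2, SS HTV 1 or SS HTV 2. The calls of Nectin1 and Ptprm over both strains were lost in 7 and 10 of 12 cases with 1 array left out, for Ptprm also without SS control 3 (adjusted p = 0.0765). Another probe set of Ptprm gave 0.12 over both strains and did not pass (limma adjusted p = 0.567). Nectin1 was also higher in BN than in SS control lungs by 0.92 (adjusted p = 0.0149), a call lost without BN control 2 (limma adjusted p = 0.0725). Under HTV beta-catenin, Ctnnb1, was higher in BN (0.52) and Nectin2 (-0.74) and the actin linker Vcl (-0.60) were lower, but other probe sets of Nectin2 (0.65) and Vcl (0.72) passed in the opposite direction. The Nectin2 and Vcl calls were lost in 8 and 5 of 12 cases with 1 array left out, and the Ctnnb1 call in 0. The other probe sets of Ctnnb1 gave -0.17 and 0.32 and did not pass (adjusted p = 0.713 and 0.258), so no strain direction is given for these 3 genes.

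Regulators of junction genes had 12 members tested, and over both strains 2 rose and 3 fell with HTV. Among all probe sets 7.02% rose and 8.71% fell over both strains, 3.91% and 4.16% in SS and 2.96% and 2.86% in BN. Snai1, a repressor of claudin, occludin and E-cadherin genes, fell by 0.57 log2 units (adjusted p = 0.00125), Tcf21 by 0.69 and Zeb2, a repressor of the same kind, by 0.33. Klf5, an epithelial activator, rose by 0.48 (adjusted p = 0.000608), and Elf3 by 0.34, a call lost in 10 of 12 cases with 1 array left out. In SS 1 rose and 3 fell, and in BN 1 rose and 2 fell: Klf5 passed in each strain (0.39 and 0.57), and so did Snai1 (-0.54 and -0.59) and Tcf21 (-0.78 and -0.61). With 1 array left out, the calls over both strains of Snai1, Tcf21, Zeb2 and Klf5 were all kept. Within a strain Snai1 lost its call in 4 of 12 such cases in SS and 4 in BN, Zeb2 in 4 in SS, Klf5 in 5 in SS and Tcf21 in 5 in BN. The SS difference of Klf5 was 0.32 without SS control 3 (adjusted p = 0.0877), and Elf3 over both strains was then 0.29 (adjusted p = 0.0866). The other 3 probe sets of Klf5 lay above 0 in both strains and passed in neither, and 2 of them passed over both strains (0.78 and 0.66). The other 4 probe sets of Zeb2 gave -1.11, -0.32, -0.15 and -0.13 over both strains, and the last pair did not pass (adjusted p = 0.232 and 0.705). Mean Snai1 intensity went from 178.9 to 117.7 in SS and from 165.6 to 104.0 in BN. Between the strains 0 of the 12 passed in control lungs or under HTV (limma; 3 and 3 at an unadjusted p below 0.05).

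**Figure D4:**
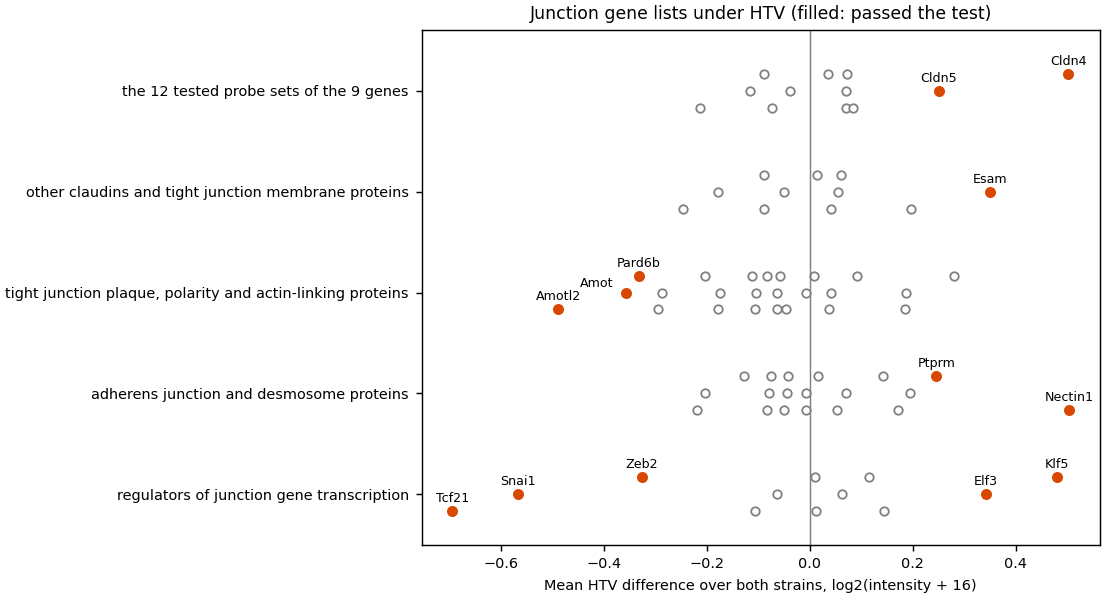
HTV differences over both strains (log2 scale, intensity + 16) of the tested genes of each junction list, 1 point a gene at its probe set with the highest mean, and of the 12 tested probe sets of the 9 genes. Filled points passed the test, and among them Amotl2 lies at -0.49, Klf5 at 0.48 and Cldn4 at 0.50.

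Genes whose intensity followed the pair past the test were ranked by Pearson correlation of log2 values over the 12 arrays, among 10554 genes. Closest to Cldn4 were the splicing factor Srsf5 (r = 0.949), Tbrg4 (0.939) and the phosphatidate phosphatase Lpin1 (0.929). Closest to Cldn5 were the Mediator subunit gene Med13l (0.946), Cldn4 itself (0.928) and the RNA polymerase subunit gene Polr1d (0.913). Srsf5 had means of 1046 and 1556 in SS control and HTV lungs and of 1398 and 1902 in BN, the order of groups seen for Cldn4. These are descriptions across arrays that share group, strain and array quality.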

How the data were processed

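Right lung RNA of 12 rats was measured on Affymetrix rat arrays, 3 per group. The values the authors deposited are linear intensity. MAS5 is named in the submitters' processing notes, and its version is not given in the sources used here. With 2% of values trimmed at each end, every array had a mean of 150 (medians 58.5 to 68.1), so the deposited scaling was kept. Detection calls were not used here. The platform annotation named 1 gene for 20832 probe sets and several for 436, and names were checked against RefSeq GRCr8.

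Of 31099 probe sets, 57 controls were left out. After taking log2(intensity + 16), the filter removed those whose mean over the 12 arrays was under the 40th percentile (about 42.25 in intensity). One limma model of the 12 arrays estimated the 4 groups together (limma 3.58.1 in R 4.3.3, eBayes with trend, 8 residual degrees of freedom), with Benjamini-Hochberg adjustment over 18625 probe sets in each of 6 comparisons. The script was tested on simulated data.

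The members and lists were chosen with earlier results of these data known. Every member is reported. From each other list of junction genes, regulators or cell markers (alveolar type 1 and 2, epithelium, airway, endothelium, neutrophils, platelets, cardiac muscle), genes past the test were counted and up to 4 of smallest p named per comparison, a gene standing for its brightest tested probe set. As exceptions, all regulators past the test over both strains were named, and neutrophil, platelet and cardiac muscle markers were counted without names. For each member past the test, the 3 genes of highest correlation were named. Alternatives were pseudocounts of 1 and 64, quantile normalization, median centring, no filter or 1 at the 60th percentile, array weights, no trend in eBayes, fits of only the arrays compared, the beta-actin ratio as a covariate, SS control 3 and BN HTV 3 left out together, and each array left out in turn.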

Additional observations from a re-analysis of the deposited data

How the results depend on the processing

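For HTV in SS, the count of 1 probe set past the test became 0 with a pseudocount of 64, no filter, the filter at the 60th percentile (which drops Cldn4), median centring and only the arrays compared, and 2 with quantile normalization, array weights, the beta-actin covariate and SS control 3 and BN HTV 3 left out. With single arrays left out it was 0 to 2. For HTV in BN, 0 became 1 with a pseudocount of 64, quantile normalization, eBayes without trend, array weights and the beta-actin covariate, and was 0 to 1 with single arrays left out. Over both strains, 2 became 1 with no filter, the filter at the 60th percentile, median centring and eBayes without trend, 3 with the beta-actin covariate (Tjp1 added) and 4 with quantile normalization, and was 1 to 2 with single arrays left out. For the strains in control lungs, 0 became 1 with quantile normalization, 5 with array weights and 4 with both arrays left out, and was 0 to 2 with single arrays left out. Under HTV and for the interaction it was 0 in every alternative run. The cause of these changes was not tested.

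Of 1626 differences of single probe sets under alternatives, 27 lost a call, 28 gained one and 0 reversed a call. A further 82 changed sign with no call on either side, in 27 differences of at most 0.17 log2 units. Over all probe sets, array weights moved the count for the strains in control lungs from 2281 to 4090 and that for HTV in BN from 1084 to 1658. Fits of only the arrays compared gave 810 in place of 1502 for HTV in SS and 1463 in place of 2281 between the control lungs, and the beta-actin covariate gave 581 in place of 1535 for the strains under HTV. With single arrays left out the counts were 630 to 1506 for HTV in SS, 540 to 1462 in BN, 744 to 2328 between control lungs of the strains, 684 to 2200 between their HTV lungs, and 0 to 1 for the interaction. With median centring, 36.2% of calls in SS were rises in place of 48.5%, and between control lungs 32.0% were higher in BN in place of 52.3%. The median of all probe sets moved by less than 0.1 log2 units under the scaling alternatives. No paired analysis was possible because the labels give each array its own code and name no pairs. In BN every control code comes before every HTV code, so the order of codes and HTV cannot be told apart there. In SS the codes of SS control 3 and SS HTV 3 follow each other, after a gap from the other SS codes. Whether animals with neighbouring codes were handled together is not stated and was not tested. The replicate numbers used here follow the order of deposit and pair no samples. Distance from background is unknown without detection calls, which limits dim probe sets such as Cldn4.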
